A study of Rattus norvegicus with 9 samples.

Results

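The mitochondrial ribosomal proteins were the genes whose name starts with Mrpl or Mrps followed by a number, taken from 3 tables of rat left ventricle RNA-seq. Transcripts were summed per gene name, and genes with a mean of at least 1 CPM (counts per 1000000) over the 9 libraries were kept, which left 75 of 76 name matches among 22608 genes. By name, 46 belong to the large subunit (Mrpl) and 29 to the small subunit (Mrps). The libraries were made from the heart, given as left ventricle, of Sprague-Dawley rats whose age is stated as 8 weeks plus 28 days, and there were 3 libraries in each of 3 groups. The design text of the series speaks of tendon fascicles under strain, which fits neither its title nor the labels, and the labels were followed. One group received saline, another angiotensin II (Ang II, a hormone that constricts vessels, raises blood pressure and, infused into rodents, scars the heart), and the last received Ang II together with sodium butyrate (NaBu, a salt of the fatty acid that gut bacteria make from fibre, which blocks histone deacetylases). The last is called the NaBu group, and since Ang II was given in it too, no library shows NaBu alone. No dose is stated, nor whether each library is 1 animal, so the spread behind the p-values is that between libraries and may be technical.

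Mitochondria carry their own ribosome, which translates the few proteins encoded in mitochondrial DNA, all of them subunits of the respiratory chain and ATP synthase. Its RNA comes from mitochondrial DNA, while its proteins are encoded in the nucleus, made in the cytosol and imported. Some of these proteins have a counterpart in the bacterial ribosome and others are found only in mitochondria. In human infants, inherited variants of MRPL3, MRPL44 or MRPS22 cause heart muscle disease together with failure of oxidative phosphorylation. The names do not follow the structure in every case: Mrps30 and Mrps18a sit in the large subunit of the mammalian mitochondrial ribosome, and Mrps36 is a subunit of the alpha-ketoglutarate dehydrogenase complex. By structure the members are therefore 48 large-subunit proteins, 26 small-subunit proteins and Mrps36.

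All 75 members passed the filter on low counts and were tested among 15467 genes. Library totals ran from 29284780 to 49865446 estimated counts, of which the members took 0.152% to 0.240%. The 10 ventricular cardiomyocyte markers were all detected, with a summed level of 121700 to 175300 CPM. Saline replicate 2 stood apart: its 10 atrial markers summed to 6037 CPM, against 111.5 to 361.1 CPM in the other 8 libraries. That library also had the lowest ventricular sum and the highest fibroblast sum, 4531 CPM against 2625 to 3828 CPM elsewhere. The member calls and medians against saline, and those of several other sets, are therefore also given without it. Values against saline that are given only with this library may depend on it.

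Member transcripts were most abundant in the NaBu libraries. The summed level of the 75 members was 1920, 1336 and 2031 CPM in saline replicates 1, 2 and 3, and 1610, 1879 and 1933 CPM in Ang II replicates 1, 2 and 3. It was 2360, 2245 and 2494 CPM in the NaBu libraries, which the deposited columns number 2, 4 and 6. All 3 NaBu libraries lay above all of the others, while the saline and Ang II libraries overlapped. The lowest libraries were saline replicate 2, in which 58 of the 75 members had their lowest level, and Ang II replicate 1, which was lowest for 11 members. NaBu replicate 6 was highest for 42 members and NaBu replicate 2 for 17.

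**Figure D1:**
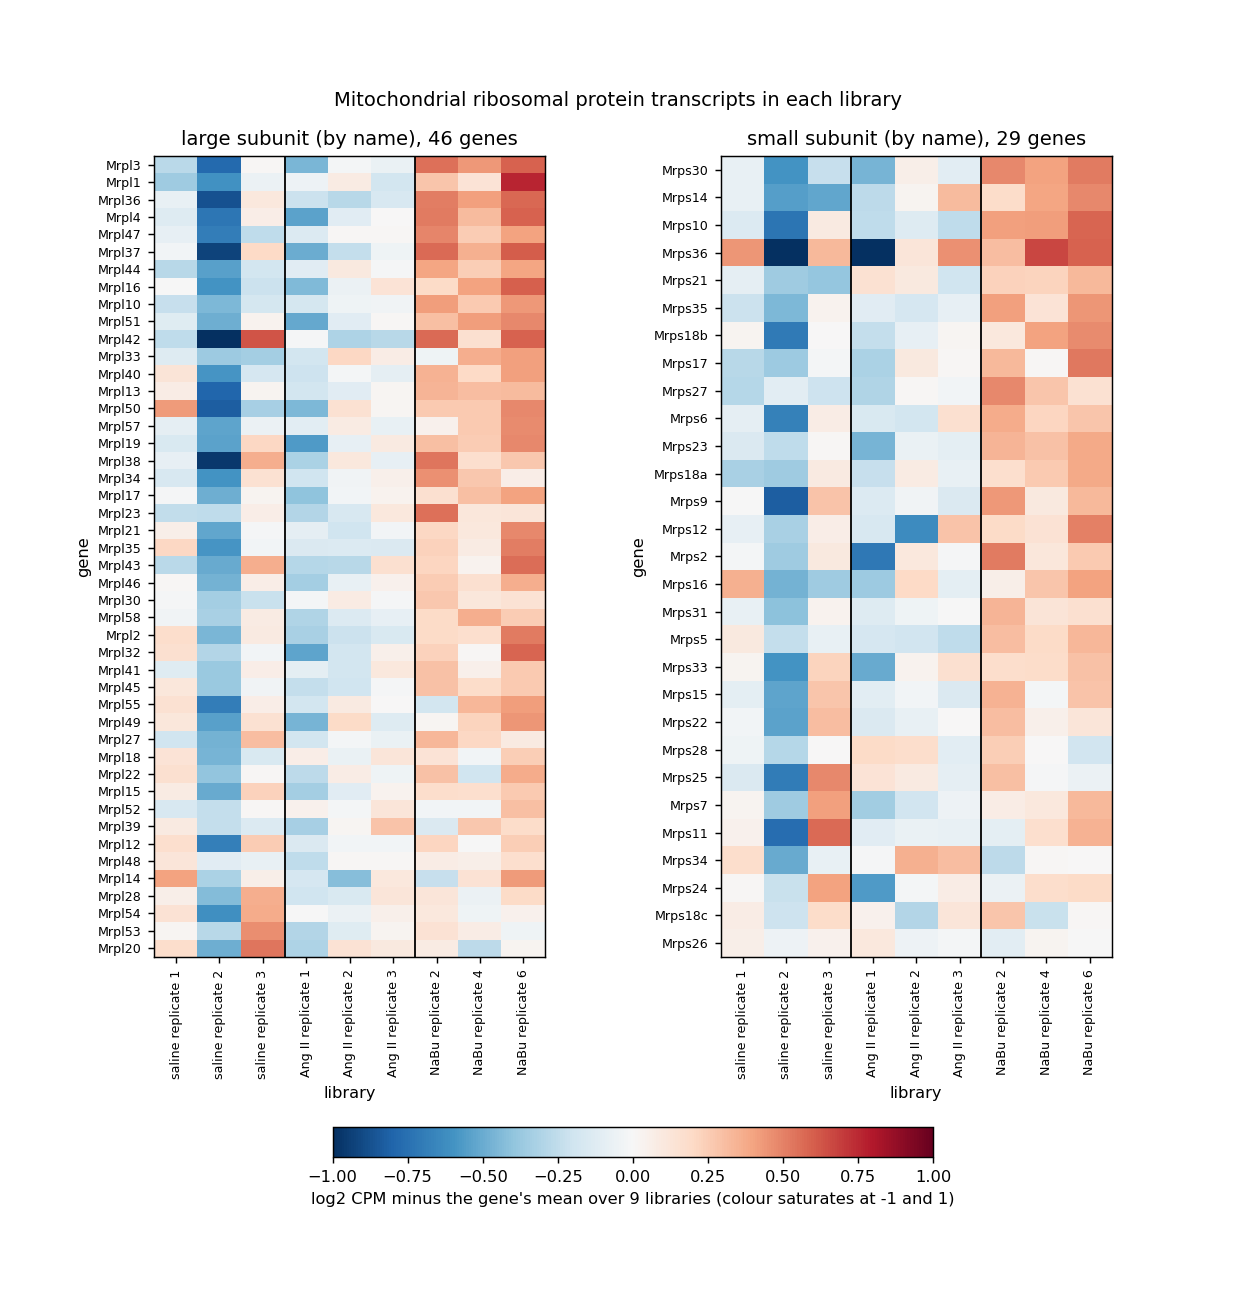
Level of each member in each of the 9 libraries, as log2 CPM minus the gene's mean over the libraries, with large-subunit genes at left and small-subunit genes at right, ordered by the difference between NaBu and saline. Red is above and blue below the gene's own mean. Most rows are red in the 3 NaBu columns, saline replicate 2 is the bluest column, and Mrps26 in the last row at right stays pale throughout.

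The 2 low libraries were low in other mitochondrial genes as well. The median member deviated from its mean over the 9 libraries by -0.49 on the log2 scale in saline replicate 2 and by -0.21 in Ang II replicate 1. The 81 nuclear-encoded respiratory complex subunits deviated by a median of -0.61 and -0.31 in the same libraries. Cytosolic ribosomal proteins deviated less, by -0.07 and -0.15. In bulk tissue, a smaller share of a cell type and less of a transcript in each of its cells cannot be told apart. Ventricular markers deviated by -0.55 in saline replicate 2 and by -0.12 in Ang II replicate 1, and their part in the low member levels was not tested.

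The first comparison asked how the mitochondrial ribosome responded to Ang II. No member passed the test between Ang II and saline in either direction with edgeR's quasi-likelihood test, where the share of all genes called was 0% higher and 0% lower. At an unadjusted p under 0.05, 3 members were higher and 0 lower, against 2.44% and 3.49% of all genes. DESeq2 called 0 members, and of all 15467 genes it called 23 higher (0.15%) and 34 lower. The median log2 difference was 0.0138 for the members and -0.0045 for all genes tested, with 42 members above 0 and 33 below. The groups did not overlap for 2 members, Mrpl44 and Mrpl10, both higher under Ang II, where 4.94% of all genes were apart in that direction. None was apart as lower, against 4.97% of all genes. The sign of the median rested on single libraries: without saline replicate 2 the median was -0.15 with 18 of 75 members above 0, and without Ang II replicate 3 it was -0.0054 with 35 above 0. The members at an unadjusted p under 0.05 in edgeR moved too, to 0 higher and 7 lower without saline replicate 2. Without saline replicate 1 there were 8 higher and 0 lower. Fibroblast markers were lower under Ang II in 10 of 10 (median log2 difference -0.54) and macrophage markers in 6 of 6 (-0.39). Their highest sums were in saline replicate 2. Atrial markers were lower in 10 of 10 (-3.56) and smooth muscle markers in 4 of 4 (-0.45), and these sums too were highest in saline replicate 2. Erythroid markers were higher in 6 of 6 (0.67) and endothelial markers in 7 of 8 (0.10). Ventricular markers were higher in 6 and lower in 4 (0.01). No marker was called, and their part in the member levels was not tested.

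Between Ang II and NaBu most members had a higher level with NaBu, while none of them passed the test. The median log2 difference was 0.36 for the members and -0.02 for all genes tested, and 71 of 75 members were higher in the NaBu group. edgeR called 0 members in either direction, with 0.647% of all genes called higher and 0.957% lower. At an unadjusted p under 0.05 there were 28 members higher and 0 lower, against 11.3% of all genes higher and 11.1% lower. DESeq2 called 14 members higher, with 5.94% of all genes. In 47 of the 75 members (62.7%) every NaBu library lay above every Ang II library, and 18.1% of all genes were apart in this way. No member was apart in the other direction, as 17.5% of all genes were. The lowest adjusted p was 0.0515, for Mrps5, the counterpart of a bacterial protein at the messenger RNA entry of the small subunit. Counts of calls moved with libraries outside the contrast, for the members and for all genes: edgeR called 20 members and 6.16% of all genes higher without saline replicate 2, and 4 members and 1.71% without saline replicate 3. Without Ang II replicate 1 the median was 0.29, with 71 members higher. Cell type markers moved in this comparison too, and their part in the member levels was not tested. The 10 ventricular markers summed to 146600 to 155000 CPM under Ang II and 162100 to 175300 CPM in the NaBu group, with 9 of 10 higher and a median log2 difference of 0.11. The 8 endothelial markers summed to 1980 to 2241 CPM and 1632 to 1914 CPM, with 8 of 8 lower, a median of -0.24 and 1 called lower. No marker of either list was at 0 in all libraries. Of the other lists, erythroid markers were lower in 6 of 6 (median -0.32) and smooth muscle markers in 4 of 4 (-0.35). Fibroblast markers were higher in 7 of 10 (0.17), atrial markers in 7 of 10 (0.45) and macrophage markers in 4 of 6 (0.12).

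The members with the largest difference between NaBu and Ang II among those with separate groups were Mrpl37, Mrpl36, Mrpl3 and Mrps10. Mrpl37, a mitochondria-specific large-subunit protein, was at 26.5, 31.7 and 36.3 CPM under Ang II and at 55.5, 47.7 and 56.8 CPM in the NaBu group. Its saline libraries were at 36.7, 19.65 and 42.9 CPM, so all NaBu libraries were above the other 6. The difference from Ang II was 0.76 on the log2 scale (SE 0.24, edgeR adjusted p = 0.111). Mrpl36, counterpart of the smallest protein of the bacterial large subunit, was at 5.45, 5.22 and 5.66 CPM under Ang II and at 9.03, 8.43 and 9.45 CPM in the NaBu group. The Ang II libraries lay close together and well below the NaBu libraries, with a difference of 0.72 on the log2 scale (SE 0.231, edgeR adjusted p = 0.115). Mrps10, counterpart of bacterial S10 in the head of the small subunit, was at 8.34, 9.09 and 8.34 CPM under Ang II and at 13.2, 13.3 and 14.9 CPM in the NaBu group. Here too the groups were separate, with a difference of 0.68 on the log2 scale (SE 0.192, edgeR adjusted p = 0.0877). The saline libraries of Mrps10, at 9.03, 5.96 and 10.6 CPM, were all below the NaBu libraries as well.

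In the comparison of NaBu with saline, 9 members rose and 0 fell, which is 4 large-subunit and 5 small-subunit genes by name. edgeR called 3.01% of all genes higher and 2.05% lower here. At an unadjusted p under 0.05 there were 36 members higher and 0 lower, against 12.4% and 12.2% of all genes, and DESeq2 called 24 members higher, with 8.32% of all genes. The median log2 difference was 0.39 for the members against -0.05 for all genes, and 72 of 75 members were above 0. The groups were apart in 37 members, all higher with NaBu, and in 14.5% of all genes in that direction and 14.1% in the other. This comparison shares its NaBu libraries with the preceding one. In 32 of 75 members (42.7%) each NaBu library lay above each of the 6 other libraries, as it did in 10.8% of all genes. Without saline replicate 2 the groups were apart in 39 members, with 20.2% of all genes, and 33 members lay above all 5 other libraries, with 12.7% of all genes. The 10 fibroblast markers summed to 2661 to 4531 CPM in saline and 2636 to 3316 CPM in the NaBu group, with 10 of 10 lower and a median log2 difference of -0.43, or 8 of 10 lower and -0.23 without saline replicate 2. The 4 smooth muscle markers summed to 249.5 to 839.8 CPM and 251.7 to 353.2 CPM, with 4 of 4 lower and a median of -0.81, or -0.02 without that library. Of the endothelial markers, 8 of 8 were lower, with a median of -0.155 and 1 called lower. Without saline replicate 2, 1 of 8 was higher, the median was -0.17 and 1 was called lower, with 141 of all 15722 genes. Of 10 ventricular markers, 8 were higher and 2 lower, with a median of 0.13, or 6 higher and 0.02 without that library. Atrial markers were lower in 10 of 10 (-2.93), macrophage markers lower in 5 of 6 (-0.29) and erythroid markers higher in 4 of 6 (0.22). Of these, 1 atrial marker was called lower and 1 erythroid marker higher. Without saline replicate 2 these medians were -0.52, -0.17 and 0.32, with 0 called. No marker of these lists was at 0 in all libraries, and their part in the member levels was not tested.

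The 9 calls rested on few libraries. Without saline replicate 2 edgeR called Mrpl3, Mrpl10, Mrpl44 and Mrpl47 and 1.86% of all genes higher, and the median was 0.25 with 62 members above 0. The 5 members named Mrps lost their call there, with adjusted p of 0.0999 for Mrps14, 0.0651 for Mrps21, 0.0555 for Mrps27, 0.0592 for Mrps30 and 0.0789 for Mrps35. Without saline replicate 3 edgeR called 15 members and 4.86% of all genes. Leaving out Ang II replicate 2 left 2 calls (0.874% of all genes), Ang II replicate 3 left 3 (0.909%), and NaBu replicate 4 left 1 (0.432%). With NaBu replicate 2 or 6 left out edgeR called 0 members and 0.0317% and 0.019% of all genes higher, so calls were lost across all genes, and 26 and 27 members were higher at an unadjusted p under 0.05. With only the saline and NaBu libraries in the fit, edgeR called 0 members and 0.0331% of all genes, with 33 members higher at that level. The groups come in separate tables, so effects of treatment and of how a table was made cannot be told apart.

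**Figure D2:**
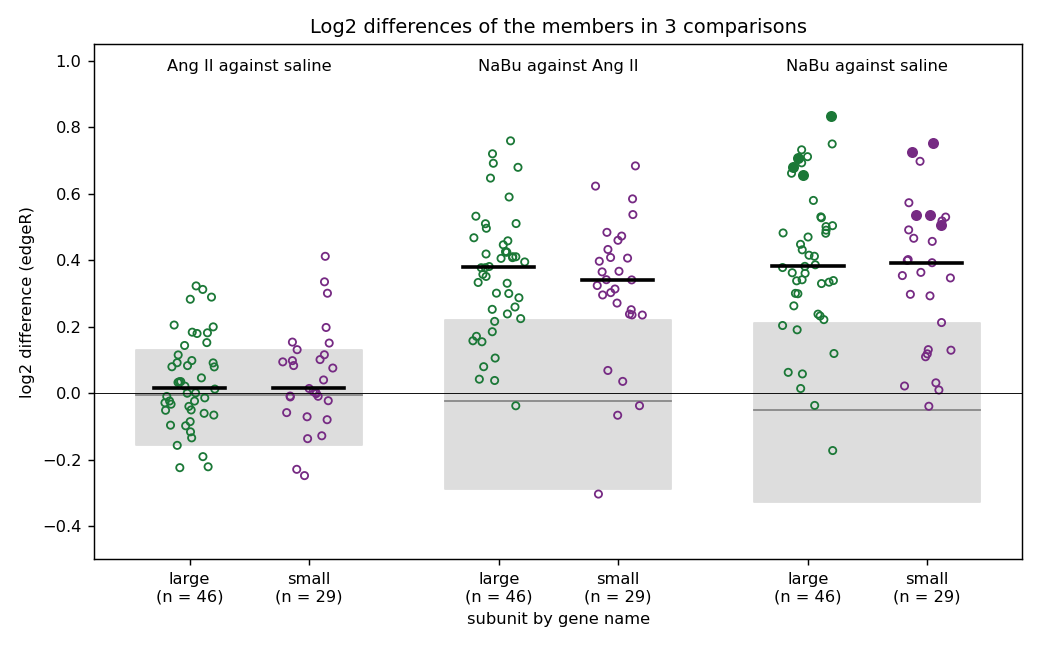
Log2 difference of each member (edgeR) in the 3 comparisons, with the large subunit in green and the small subunit in purple by gene name. Filled points were called, black bars are the medians, and the grey band and line give the quartiles and the median of all genes tested. The medians lie near 0 for Ang II against saline and at 0.34 to 0.39 in the other comparisons, where few members fall below 0.

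The 9 members that rose come from several parts of the ribosome. In the large subunit, Mrpl3 is the counterpart of bacterial L3, which reaches toward the peptidyl transferase centre. Mrpl3 was at 60.0, 42.15 and 72.6 CPM in saline, 52.65, 71.1 and 69.1 CPM under Ang II, and 105.5, 97.4 and 108.4 CPM in the NaBu group. All NaBu libraries stood above the rest, and saline and Ang II overlapped. Its log2 difference from saline was 0.83 (SE 0.185, edgeR adjusted p = 0.0363), the largest of the members. Mrpl44, which has a fold like that of ribonuclease III, was at 15.6, 12.9 and 16.6 CPM in saline, 17.4, 20.2 and 18.7 CPM under Ang II and 24.8, 22.4 and 24.8 CPM in the NaBu group. For this gene the 3 groups were stacked without overlap, in the order saline, Ang II, NaBu. NaBu exceeded saline by 0.68 on the log2 scale (SE 0.123, edgeR adjusted p = 0.0222), and Ang II stood 0.32 above saline (SE 0.123, edgeR adjusted p = 0.766).

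Mrpl10, the base of the flexible stalk on which translation factors land, was at 20.5, 17.6 and 21.3 CPM in saline, 21.3, 23.3 and 23.5 CPM under Ang II and 32.2, 28.9 and 32.6 CPM in the NaBu group. The NaBu libraries were again clearly separate, while the highest saline and the lowest Ang II library were nearly level. The log2 difference from saline was 0.66 (SE 0.109, edgeR adjusted p = 0.0201). Mrpl12, which forms the stalk itself, did not pass the test: its levels were 78.5, 43.6 and 83.2 CPM in saline, 63.2, 68.6 and 68.6 CPM under Ang II and 81.1, 69.9 and 83.02 CPM in the NaBu group. Saline and NaBu overlapped for Mrpl12, with a difference of 0.19 on the log2 scale (SE 0.202, edgeR adjusted p = 0.609). Mrpl47, counterpart of bacterial L29 near the exit of the peptide tunnel, was at 36.5, 23.9 and 32.5 CPM in saline, 35.2, 39.1 and 39.1 CPM under Ang II and 54.2, 46.1 and 51.2 CPM in the NaBu group. The NaBu libraries were highest and saline and Ang II overlapped, with a log2 difference from saline of 0.71 (SE 0.145, edgeR adjusted p = 0.0305).

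Mrps30 is counted here with the small subunit by name only. It was at 26.7, 18.5 and 24.0 CPM in saline, 20.3, 29.3 and 26.1 CPM under Ang II and 39.2, 37.1 and 40.2 CPM in the NaBu group. The NaBu libraries were tightly grouped above the rest, and the log2 difference from saline was 0.75 (SE 0.16, edgeR adjusted p = 0.0335). Mrps27, a pentatricopeptide repeat protein that binds RNA, was at 28.9, 32.9 and 30.6 CPM in saline, 28.7, 35.7 and 34.65 CPM under Ang II and 49.2, 42.8 and 39.3 CPM in the NaBu group. Its highest saline library was replicate 2, the lowest library for most members, and all NaBu libraries were above the other 6. The log2 difference from saline was 0.51 (SE 0.12, edgeR adjusted p = 0.0413). Mrps35, a mitochondria-specific protein, was at 27.3, 23.3 and 32.5 CPM in saline, 29.3, 28.2 and 29.9 CPM under Ang II and 42.15, 34.9 and 43.2 CPM in the NaBu group. Its lowest NaBu library came near its highest saline library, and the log2 difference was 0.53 (SE 0.133, edgeR adjusted p = 0.0481).

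Mrps14 and Mrps21, counterparts of bacterial S14 and S21, rose against saline, and their Ang II libraries overlapped with the saline ones. Mrps14 was at 20.7, 14.9 and 15.2 CPM in saline, 18.2, 22.2 and 27.1 CPM under Ang II and 24.8, 28.6 and 30.5 CPM in the NaBu group. NaBu and saline were separate and Ang II overlapped with both. NaBu exceeded saline by 0.72 on the log2 scale (SE 0.177, edgeR adjusted p = 0.0459). Mrps21 was at 41.4, 34.5 and 33.7 CPM in saline, 49.1, 47.4 and 38.5 CPM under Ang II and 51.8, 51.6 and 55.45 CPM in the NaBu group. Ang II replicate 3 fell among the saline libraries, and all NaBu libraries were above both groups. NaBu exceeded saline by 0.53 on the log2 scale (SE 0.119, edgeR adjusted p = 0.0365). Among the 9 genes, Mrpl10 was called in 15 of 20 other ways of fitting this comparison and Mrps14 and Mrps35 in 7.

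**Figure D3:**
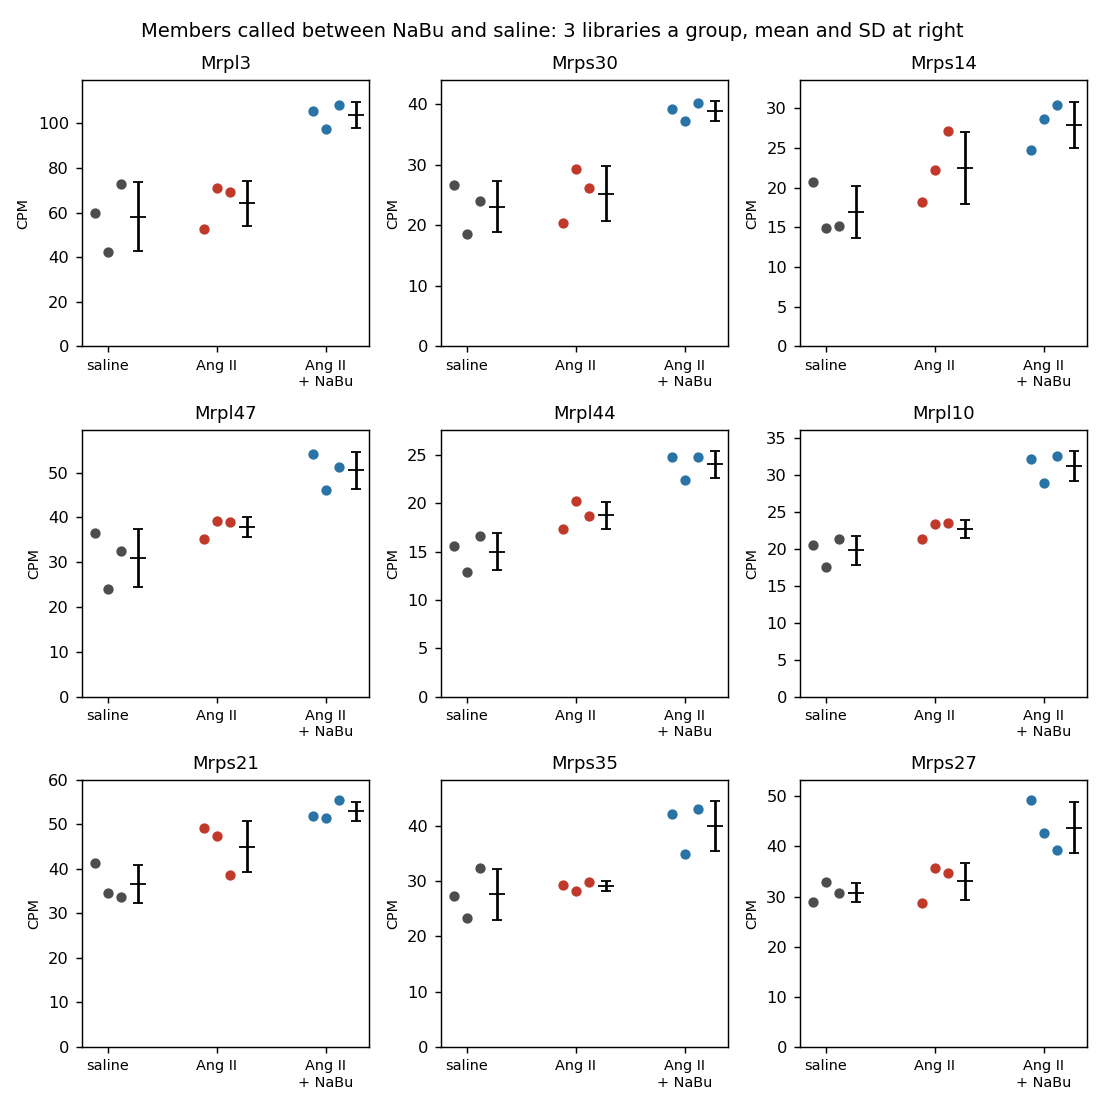
Level in CPM of the 9 members called between NaBu and saline, with 1 point for each of 3 libraries a group and the mean with its SD at the right of the points. Every NaBu point is above every saline point in all 9 panels, and Mrps14 is the panel in which NaBu and Ang II overlap.

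The starts of several of these genes were read to see which letters they share. Promoters of 300 bases, 250 before and 50 after the gene start, were taken from RefSeq for the rat build GRCr8, where 61 of the 75 members had an entry, with 63 promoters. The letters searched on both strands were GCGCATGC, the core bound by NRF1, CCGGAAG, bound by ETS factors such as GABP, AAGATGGC, bound by YY1, and GGGCGG, bound by Sp1. NRF1 and GABP are known regulators of nuclear genes for mitochondrial proteins. Of the called members, 8 have an entry, with 9 promoters, and 5 of these promoters hold an NRF1, ETS or YY1 core. Among these, 4 are printed 5′ to 3′ as examples of each core, followed by Mrps26, whose 9 values were nearly level, and capitals mark the NRF1, ETS and YY1 matches, while Sp1 matches are left in lower case.
Mrpl3, chr8:114548720-114549019, plus strand: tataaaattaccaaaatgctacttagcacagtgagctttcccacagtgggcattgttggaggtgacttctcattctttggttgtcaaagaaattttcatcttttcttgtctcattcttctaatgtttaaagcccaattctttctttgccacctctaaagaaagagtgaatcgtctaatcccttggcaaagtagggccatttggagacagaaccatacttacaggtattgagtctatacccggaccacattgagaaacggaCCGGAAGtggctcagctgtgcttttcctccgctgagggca
Mrps30, chr2:52195855-52196154, minus strand: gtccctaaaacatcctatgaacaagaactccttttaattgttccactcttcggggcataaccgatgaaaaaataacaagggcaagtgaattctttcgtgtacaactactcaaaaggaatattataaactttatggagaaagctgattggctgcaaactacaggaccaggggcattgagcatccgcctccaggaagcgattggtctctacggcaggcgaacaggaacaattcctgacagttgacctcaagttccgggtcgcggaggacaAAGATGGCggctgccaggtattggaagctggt
Mrpl44, chr9:88554800-88555099, plus strand: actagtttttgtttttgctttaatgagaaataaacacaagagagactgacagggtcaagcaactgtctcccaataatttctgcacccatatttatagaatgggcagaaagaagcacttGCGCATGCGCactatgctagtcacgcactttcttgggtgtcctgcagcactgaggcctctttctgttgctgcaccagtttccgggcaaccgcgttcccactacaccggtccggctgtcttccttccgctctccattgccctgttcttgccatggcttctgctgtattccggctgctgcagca
Mrps27, chr2:32473954-32474253, plus strand: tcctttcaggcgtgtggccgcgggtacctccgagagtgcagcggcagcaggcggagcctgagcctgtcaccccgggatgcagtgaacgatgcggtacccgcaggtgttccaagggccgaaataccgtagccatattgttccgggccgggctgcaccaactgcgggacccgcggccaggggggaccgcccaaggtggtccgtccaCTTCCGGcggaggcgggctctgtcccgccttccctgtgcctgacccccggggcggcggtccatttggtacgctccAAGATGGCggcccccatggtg
Mrps26, chr3:138222074-138222373, plus strand: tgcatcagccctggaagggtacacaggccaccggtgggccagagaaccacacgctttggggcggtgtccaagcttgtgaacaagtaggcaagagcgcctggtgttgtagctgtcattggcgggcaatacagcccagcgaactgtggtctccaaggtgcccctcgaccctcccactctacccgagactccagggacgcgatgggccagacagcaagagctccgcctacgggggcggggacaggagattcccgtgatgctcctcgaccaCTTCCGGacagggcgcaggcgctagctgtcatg
Mrpl44 holds an NRF1 core on each strand, overlapping one another, starting 132 bases before the gene start. Mrps27 holds an ETS core and a YY1 core, and Mrps26 holds an ETS core as Mrpl3 does.

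The shares of promoters with a YY1 or an ETS core were higher among members than among all promoters, a description with no test. The YY1 core was found in 15 of 63 member promoters (23.8%), against 4.86% of 12395 promoters of protein-coding genes tested and 3.68% of 21842 promoters of all protein-coding genes. The ETS core was in 21 (33.3%), against 15.1% and 10.7%. Member promoters held the NRF1 core in 7.94% of cases, against 4.53% and 3.11%, and the Sp1 core in 49.2%, against 57.7% and 41.8%. Of the 15 YY1 matches, 13 were on the gene's own strand and 11 lay after the gene start, with a median position of 17 bases after it. The YY1 letters include an ATG. ETS and YY1 cores together were in 6 member promoters (9.52%) and in 1.09% of those of genes tested. Any of the NRF1, ETS and YY1 cores was present in 52.4% of all member promoters and in 55.6% of the 9 promoters of called members. The share was 22.3% for promoters of protein-coding genes tested and 16.1% for those of all protein-coding genes.

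Member genes often lay head to head with another gene. The medians of those neighbours were below 0 with NaBu, as were those of all genes tested. A gene on the opposite strand started within 1000 bases upstream of 17 of 63 member promoters (27.0%), against 9.54% of promoters of protein-coding genes tested. Mrpl46 and Mrps11 are such a pair within the set, with 234 bases between their starts. The other 15 had a neighbour outside the set. Between NaBu and Ang II, 7 of these 15 neighbours were higher, with a median log2 difference of -0.08, while the members beside them had a median of 0.41. Of all genes tested, 47.3% were higher in that comparison, with a median of -0.02. Between NaBu and saline, 6 of 15 were higher, with a median of -0.16 against 0.34 for their members. Of all genes tested, 44.7% were higher there, with a median of -0.05, and edgeR called 3.01% higher and 2.05% lower. Hira, a histone chaperone gene that starts 186 bases from Mrpl40, fell with NaBu against saline by 0.54 on the log2 scale (edgeR adjusted p = 0.0271), while Mrpl40 had a log2 difference of 0.50. Pnpla7, a lysophospholipase gene 996 bases from Mrpl41, fell by 0.62 (edgeR adjusted p = 0.0315) where Mrpl41 had a log2 difference of 0.34. Pnpla7 was not called without saline replicate 2 (edgeR adjusted p = 0.0511). Tcp1, a cytosolic chaperonin subunit gene beside Mrpl18, was the neighbour that rose, by a log2 difference of 0.54 (edgeR adjusted p = 0.0201), and Mrpl18 was at 0.26. No test compared the neighbours with the members.

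The medians of the large and small subunits were close. By name, the median log2 difference between NaBu and Ang II was 0.38 for the 46 large-subunit genes and 0.34 for the 29 small-subunit genes. Between NaBu and saline the medians were 0.38 and 0.39. By structure they were 0.38 and 0.32 in the first of these comparisons and 0.40 and 0.36 in the second. Large minus small, the medians by name differed by 0.0384 between NaBu and Ang II and by -0.0086 between NaBu and saline. By structure they differed by 0.0606 and 0.0404. Within groups, the large-minus-small median of single libraries, by name, varied with a pooled SD of 0.0551 on the log2 scale. That SD is not the error of a difference between groups and was not computed by structure. No test compared the subunits. Without saline replicate 2 the medians between NaBu and saline were 0.24 and 0.25 by name and 0.25 and 0.23 by structure. Members with a bacterial counterpart, 42 in number, and the 32 found only in mitochondria had medians of 0.40 and 0.37 between NaBu and saline, and 0.37 and 0.35 between NaBu and Ang II. Leaving out saline replicate 2, their medians against saline were 0.28 and 0.23.

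The sums of both subunits were highest in the NaBu group. Large-subunit transcripts summed to 1107 ± 244 CPM in saline, 1132 ± 110 CPM under Ang II and 1501 ± 90.2 CPM in the NaBu group (mean ± SD, n = 3 each). Small-subunit transcripts summed to 655.7 ± 130 CPM, 675.2 ± 63.3 CPM and 864.8 ± 34.9 CPM. The ratio of the sums also depends on transcript lengths, which were not used, so only its differences between libraries can be read. By name, the ratio was 1.73, 1.625 and 1.69 in the saline libraries, 1.675, 1.64 and 1.71 under Ang II and 1.725, 1.71 and 1.77 in the NaBu group. NaBu replicate 6 had the highest ratio and saline replicate 2 the lowest, and the groups overlapped. By structure the ratio was 2.12, 1.891 and 2.053 in saline and 1.939, 2.018 and 2.116 under Ang II. In the NaBu group it was 2.102, 2.149 and 2.199, so that NaBu replicate 2 lay just below the highest saline and Ang II libraries.

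**Figure D4:**
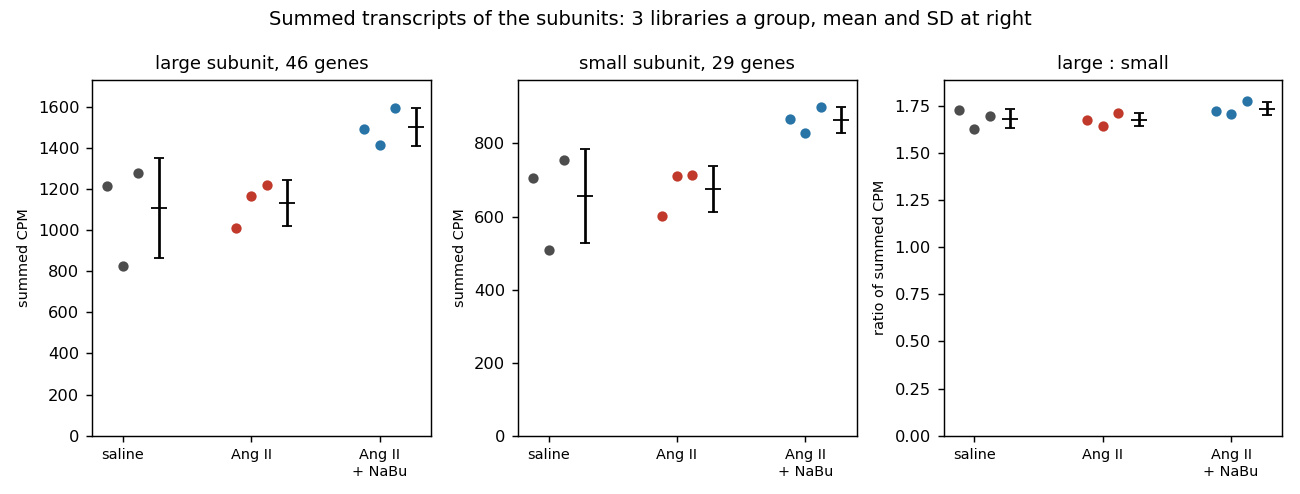
Summed CPM of the 46 large-subunit genes and of the 29 small-subunit genes by name, and the ratio of the sums, with 1 point for each of 3 libraries a group and the mean with its SD at the right. Both sums are highest in the 3 NaBu libraries, at 1415 to 1595 CPM and 829.2 to 899 CPM, while the ratios of the groups overlap.

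Among members that did not pass the test, Mrps12, counterpart of the decoding-site protein S12, was at 6.36, 5.37 and 7.09 CPM in saline, 6.05, 4.35 and 8.25 CPM under Ang II and 7.71, 7.46 and 9.59 CPM in the NaBu group. NaBu lay above saline, and Ang II replicate 3 was among the NaBu libraries. NaBu stood above saline by 0.40 on the log2 scale (SE 0.237, edgeR adjusted p = 0.331). Mrps5 was at 35.4, 28.0 and 31.5 CPM in saline, 29.5, 29.03 and 27.7 CPM under Ang II and 41.05, 37.8 and 41.8 CPM in the NaBu group. It was 1 of the 3 members with the least spread within groups, and all its NaBu libraries were above the other 6. The log2 difference from Ang II was 0.48 (SE 0.104), and that from saline was 0.35 (SE 0.104, edgeR adjusted p = 0.0781). Mrpl45, which lines the peptide exit and anchors the ribosome to the inner membrane, was at 45.5, 32.6 and 41.25 CPM in saline, 35.8, 36.8 and 41.8 CPM under Ang II and 51.8, 47.95 and 50.6 CPM in the NaBu group. The NaBu libraries were again above the rest, with log2 differences of 0.39 from Ang II and 0.33 from saline (SE 0.125 for each), at edgeR adjusted p of 0.112 and 0.138.

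Mrpl1, part of the mobile stalk at the exit site of transfer RNA, was at 5.22, 4.39 and 6.43 CPM in saline, 6.47, 7.11 and 5.89 CPM under Ang II and 8.15, 7.36 and 11.4 CPM in the NaBu group. Its NaBu libraries were all above the others, NaBu replicate 6 by the widest margin, and the log2 difference from saline was 0.75 (SE 0.214, edgeR adjusted p = 0.0685). Mrps22, a mitochondria-specific protein of the small subunit, was at 23.8, 16.8 and 30.2 CPM in saline, 22.01, 23.1 and 24.4 CPM under Ang II and 30.1, 25.2 and 26.55 CPM in the NaBu group. NaBu was above Ang II but not above saline replicate 3, and the log2 difference from saline was 0.21 (SE 0.182, edgeR adjusted p = 0.514). Mrpl41, a mitochondria-specific protein of the large subunit, had log2 differences of 0.26 (SE 0.132) from Ang II and 0.34 (SE 0.132) from saline, with edgeR adjusted p of 0.278 and 0.152.

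Mrps18a, Mrps18b and Mrps18c are 3 paralogs of bacterial S18, of which Mrps18a sits in the large subunit and the other two at different places of the small subunit. Mrps18a was at 19.5, 19.04 and 25.9 CPM in saline, 20.7, 25.8 and 23.1 CPM under Ang II and 27.35, 29.25 and 31.6 CPM in the NaBu group. Mrps18b was at 39.3, 23.6 and 38.6 CPM, at 32.8, 36.5 and 39.1 CPM and at 41.7, 51.1 and 53.6 CPM in the same order. For both paralogs all NaBu libraries were above the other 6, with log2 differences from saline of 0.46 (SE 0.141, edgeR adjusted p = 0.0843) and 0.53 (SE 0.184, edgeR adjusted p = 0.116). Mrps18c was at 9.32, 7.66 and 10.05 CPM in saline, 9.09, 7.20 and 9.63 CPM under Ang II and 10.7, 7.57 and 8.93 CPM in the NaBu group. Its 3 groups overlapped throughout, and the log2 difference from saline was 0.01 (SE 0.184, edgeR adjusted p = 0.984). Whether the paralogs differ from each other was not tested.

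In all, 4 members had a lower level with NaBu than with Ang II: Mrps34, Mrps28, Mrpl20 and Mrps26, named here after their values were seen. Mrps34, a mitochondria-specific protein needed in mice for a stable small subunit, was at 19.7, 12.3 and 16.6 CPM in saline, 17.25, 22.4 and 21.55 CPM under Ang II and 14.55, 17.6 and 17.4 CPM in the NaBu group. Ang II replicates 2 and 3 were the highest libraries and Ang II replicate 1 was among the NaBu libraries. The log2 difference between NaBu and Ang II was -0.30 (SE 0.178, edgeR adjusted p = 0.346) and that between NaBu and saline was 0.03. Mrps28, Mrpl20 and Mrps26 had log2 differences from Ang II of -0.07, -0.04 and -0.04, with edgeR adjusted p from 0.859 to 0.947. Below saline were Mrpl20 at -0.17 and Mrps26 and Mrpl53 at -0.04 each.

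Mrps26 had the smallest spread and Mrps36 the largest. Mrps26, a mitochondria-specific small-subunit protein, was at 22.7, 21.0 and 22.45 CPM in saline, 23.5, 21.1 and 21.55 CPM under Ang II and 20.3, 22.3 and 21.7 CPM in the NaBu group. All 9 libraries lay within a narrow range, saline replicate 2 included, and the pooled SD within groups was 0.0709 on the log2 scale, against a median of 0.252 over the members. Mrpl30 followed with 0.111. At the other end were Mrpl38 with 0.424 and Mrpl42 with 0.528. Mrpl42, a mitochondria-specific large-subunit protein, was at 18.8, 10.45 and 34.9 CPM in saline, 22.3, 18.1 and 18.5 CPM under Ang II and 33.2, 25.1 and 33.9 CPM in the NaBu group. Saline replicate 3 was the highest library for Mrpl42 and saline replicate 2 the lowest.

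Mrps36, whose product links the subunits of alpha-ketoglutarate dehydrogenase, an enzyme of the citric acid cycle, had a pooled SD of 0.870. It was at 62.5, 14.1 and 57.8 CPM in saline, 19.8, 49.98 and 63.15 CPM under Ang II and 57.1, 73.3 and 69.1 CPM in the NaBu group. Saline replicate 2 and Ang II replicate 1 were far below the other 7 libraries, which lay close together. The log2 difference between NaBu and saline was 0.57 (SE 0.504, edgeR adjusted p = 0.525). The genes of the other subunits of the enzyme were also lowest in saline replicate 2, by less. Ogdh was at 675.4 CPM in that library and at 950 CPM in Ang II replicate 1, against 1092 to 1649 CPM in the other 7. Dlst was at 390.6 CPM and 575.5 CPM, against 610.5 to 925.2 CPM, and Dld at 223.8 CPM and 301.8 CPM, against 329.1 to 471.6 CPM. RefSeq names 4 further copies of Mrps36, 3 of Mrpl42 and 9 of Mrpl30. In all, 24 members have named copies, among them Mrpl47 and Mrps21, and how reads shared between copies were counted is not given, so their values are uncertain to that extent.

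The other proteins of the mitochondrial ribosome and a list of genes of mitochondrial translation were also higher with NaBu. Of 5 ribosomal proteins with other names, all 5 were above 0 in both comparisons with NaBu. Chchd1, a small-subunit protein, passed the test against saline, where edgeR called 3.01% of all genes higher. Chchd1 was at 14.8, 9.41 and 13.7 CPM in saline, 12.8, 18.0 and 14.7 CPM under Ang II and 22.2, 23.75 and 26.2 CPM in the NaBu group. Its NaBu libraries stood above the rest, with a log2 difference from saline of 0.93 (SE 0.185, edgeR adjusted p = 0.0287). Dap3, a GTP-binding protein of the small subunit, had a difference of 0.14 on the log2 scale (SE 0.156, edgeR adjusted p = 0.615). The names of 3 more are in lower case in the tables and were not part of the set: mrpl9, mrpl11 and mrpl24 had log2 differences from saline of 0.69, 0.71 and 0.38, and mrpl9 was called (edgeR adjusted p = 0.0201).

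A list of 15 genes of mitochondrial translation held translation factors and also Mtfmt, Lrpprc, Slirp and Oxa1l, which are not translation factors themselves. All 15 were higher in both comparisons with NaBu, with medians of 0.43 against Ang II and 0.46 against saline. None was called against Ang II by edgeR, with 0.647% of all genes called higher, and 10 were higher and 0 lower at an unadjusted p under 0.05, with 11.3% of all genes higher. Against saline, where 3.01% of all genes were called higher, 4 rose and 0 fell: the elongation factor Tsfm, the release factor Mtrf1, the ribosome recycling factor Mrrf and Guf1, a GTPase that acts on the ribosome. Tsfm was at 7.17, 4.65 and 8.28 CPM in saline, 8.40, 8.68 and 6.70 CPM under Ang II and 13.9, 12.05 and 13.2 CPM in the NaBu group. All 3 NaBu libraries were well above the others, and the log2 difference from saline was 0.96 (SE 0.21, edgeR adjusted p = 0.0346). Without saline replicate 2 the median of the 15 genes against saline was 0.34, and Tsfm was called (edgeR adjusted p = 0.043) while Mtrf1, Mrrf and Guf1 were not (0.0639, 0.0601 and 0.06). The elongation factor gene Tufm had a difference of 0.54 on the log2 scale (SE 0.203, edgeR adjusted p = 0.141). Of 24 assembly factors, 18 were higher and 6 lower against Ang II and likewise against saline, with medians of 0.21 and 0.25. Without saline replicate 2, 17 of the 24 were higher against saline, with a median of 0.14. Eral1, a chaperone of the small-subunit RNA, rose against saline by 0.62 on the log2 scale (SE 0.148, edgeR adjusted p = 0.0437), and 0 assembly factors fell. Eral1 lost its call without saline replicate 2 (edgeR adjusted p = 0.0944).

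Beside these, 81 respiratory complex subunits had medians of 0.29 between NaBu and Ang II and 0.31 between NaBu and saline, and 83 cytosolic ribosomal proteins had medians of 0.19 and 0.14. Without saline replicate 2 the medians against saline were 0.14 and 0.11. Against Ang II, 93.8% of the respiratory subunits and 90.4% of the cytosolic ribosomal proteins were higher, beside 94.7% of the members. Every NaBu library lay above every Ang II library for 53.1% and 41% of them, beside 62.7% of the members and 18.1% of all genes. In that comparison edgeR called 0 respiratory subunits and 3 cytosolic ribosomal proteins higher, with 0.647% of all genes. Among 5 genes of mitochondrial transcription, Tfb2m, a subunit of the transcription machinery, was called in both comparisons. The shares of all genes called higher were 0.647% against Ang II and 3.01% against saline. Tfb2m was at 42.4, 32.0 and 41.9 CPM in saline, 35.1, 39.9 and 40.5 CPM under Ang II and 61.2, 55.3 and 56.6 CPM in the NaBu group. The NaBu libraries were far above the others, with log2 differences of 0.58 (SE 0.121) from Ang II and 0.57 (SE 0.121) from saline, at edgeR adjusted p of 0.047 and 0.0327. Tfam, which packages mitochondrial DNA and starts its transcription, rose against saline by a difference of 0.59 on the log2 scale (SE 0.126, edgeR adjusted p = 0.0335). With saline replicate 2 left out, Tfb2m was called against saline (edgeR adjusted p = 0.0456) and Tfam was not (0.0591). Polrmt, the mitochondrial RNA polymerase, had a difference of -0.21 on the log2 scale (SE 0.119, edgeR adjusted p = 0.313).

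Of the RNA of the ribosome, that of the large subunit was at its lowest in the NaBu libraries. This RNA, mt-Rnr2, was at 155400, 85340 and 176800 CPM in saline, 87180, 76970 and 116900 CPM under Ang II and 74590, 76930 and 66980 CPM in the NaBu group. Every NaBu library was below every other library, although NaBu replicate 4 and Ang II replicate 2 were nearly level. The log2 difference between NaBu and saline was -0.93 (SE 0.247, edgeR adjusted p = 0.0561), and that between NaBu and Ang II was -0.36 (SE 0.245, edgeR adjusted p = 0.415). Leaving out saline replicate 2, mt-Rnr2 passed the test against saline, with a difference of -1.17 on the log2 scale (SE 0.149, edgeR adjusted p = 0.0163). The small-subunit RNA mt-Rnr1 was at 755.9, 689 and 4130 CPM in saline, 1452, 711.9 and 721 CPM under Ang II and 1661, 1557 and 563.5 CPM in the NaBu group. Its libraries were spread widely within each group, with a log2 difference between NaBu and saline of -0.56 (SE 0.667, edgeR adjusted p = 0.653). The cytosolic ribosomal RNA Rn18s was at 1390, 1981 and 25260 CPM in saline and at 13790, 4905 and 1363 CPM under Ang II. In the NaBu group it was at 18590, 16060 and 11530 CPM. How far reads of ribosomal RNA follow library preparation rather than the level in the tissue was not tested. With ribosomal RNA left out of the library totals, edgeR called the same 9 members.

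**Figure D5:**
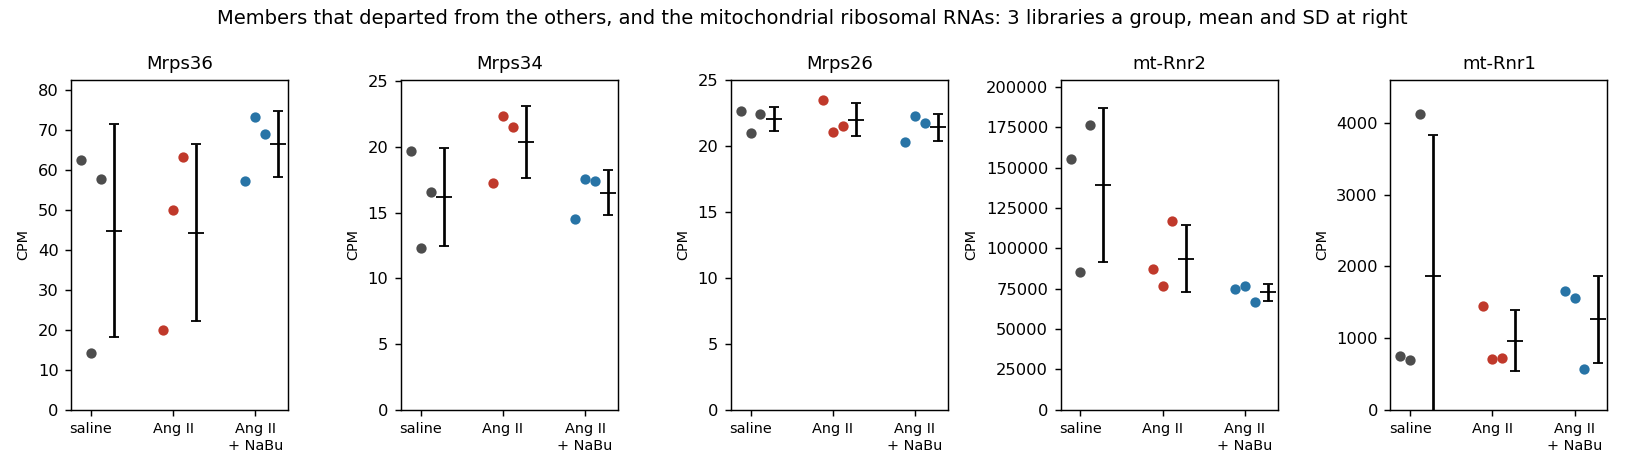
Level in CPM of Mrps36, Mrps34 and Mrps26 and of the mitochondrial ribosomal RNAs mt-Rnr2 and mt-Rnr1, with 1 point for each of 3 libraries a group and the mean with its SD at the right, the lower arm for mt-Rnr1 in saline being cut at 0. Mrps36 is low in saline replicate 2 and Ang II replicate 1 (14.1 and 19.8 CPM), Mrps26 stays between 20.3 and 23.5 CPM, and mt-Rnr2 is lowest in the NaBu libraries.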

How the data were processed

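Estimated counts of transcripts were deposited by the authors, with each group in its own table, and per the file headers each line names a transcript and its gene. A stray line-end character in the last saline column was removed on reading. Other details come from the submitters' processing notes, which name Bowtie 0.12.2 and the mouse build mm8, although the transcript IDs have the form of RefSeq IDs for predicted and known transcripts. How reads were counted, with which annotation and strand setting, is not given in the sources used here. The values, whole numbers that tend to steps of about 4, were summed per gene name and used as deposited.

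All 9 libraries entered 1 fit in R 4.3.3 with edgeR 4.0.16, using TMM factors, filterByExpr and its quasi-likelihood test. Genes were called at a Benjamini-Hochberg adjusted p under 0.05 over all 15467 genes tested, and CPM are relative to TMM-scaled totals. Log2 differences used a prior count of 0.125. DESeq2 1.42.0, other scalings, filters, transcript choices and left-out libraries were alternatives. Scripts were tested on simulated data. Figures were drawn with matplotlib 3.10.9.

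The members and lists were chosen with earlier results of these data known. Named members are all called ones, the 4 largest differences in each direction with separate groups and a mean of at least 5 CPM, 16 chosen for their role, and the 3 of largest and smallest spread. A further choice by level per length was not made, as lengths were not used here. Replicate numbers were not taken to pair saline and Ang II libraries, and the NaBu columns carry other numbers.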

Additional observations from a re-analysis of the deposited data

How the results depend on the processing

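The median difference of the members kept its sign in both comparisons with NaBu under all alternatives run: leaving out each library gave 0.29 to 0.44 against Ang II and 0.25 to 0.48 against saline, and scaling by library totals alone, which moved the median of all genes to -0.13 and -0.11, gave 0.26 and 0.35. For Ang II against saline it ran from -0.15 to 0.18. Counts of called members moved more, and the cause was not tested. Against Ang II, where edgeR called 0, there were 14 calls with DESeq2 (5.94% of all genes called higher), 21 with only the groups compared in the fit (7.12%), 1 with the values divided by 4 (1.15%), 20 with saline replicates 2 and 3 both left out (6.27%), and 0 to 20 over single libraries left out. Against saline, where edgeR called 9, there were 24 with DESeq2 (8.32%), and 0 with only the groups compared, with the highest transcript per gene or with saline replicates 2 and 3 left out (0.0331%, 0.104% and 0.338% of all genes, with 33, 26 and 20 members at an unadjusted p under 0.05), and 0 to 15 over single libraries left out. With saline replicate 2 and Ang II replicate 1 both left out, an alternative chosen after seeing the data, 9 members were called higher, 6 of them the same. In that fit 2.97% of all genes were called higher. The large-minus-small median for Ang II against saline was -0.0725 with the highest transcript per gene, -0.0744 with saline replicates 2 and 3 left out and -0.0682 to 0.024 over single libraries left out, and for NaBu against saline it was -0.0161 to 0.0678. Of the values of single members under these alternatives, 86 lost and 61 gained a call, and 0 reversed. The replicate block, possible for saline and Ang II only, gave 0 calls and a median of 0.05. Deviations of same-numbered libraries correlated at -0.033 to 0.008, which cannot show whether the libraries were paired. The labels state no pairing, and the libraries were treated as unpaired. No paired analysis was possible for NaBu because its columns carry the numbers 2, 4 and 6.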
